A study of Mus musculus with 4 samples.

Results

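The mouse gene Dcx carried 34 of the 1828 IMP2 clusters in embryonic brain RNA, more than any other of the 761 genes with a cluster. The clusters were taken as the distinct genome intervals annotated to Dcx in a deposited list of 136 Dcx lines, which repeat each interval for 4 transcripts. Dcx was selected on its number of clusters in this same list, so its number, heights and coverage, and their order among genes, are descriptions and carry no test. All 34 clusters lay in the 3' UTR, and 0 lay in the coding sequence or the 5' UTR. None was shared with another gene. Among the genes with the next most clusters, Sox11 (25), Ccnd2 (17) and Xpr1 (13) also had all of theirs in the 3' UTR. Fzd3 had 25 of 27 there and Map1b 18 of 25. Having all clusters in the 3' UTR was therefore shared with other genes and not particular to Dcx. Of the 760 other genes, 728 had at least 1 cluster in the 3' UTR. The share of 3' UTR clusters over the whole list was not computed.

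The data are HITS-CLIP, in which ultraviolet light joins a protein to the RNA it touches, an antibody pulls the protein down, and the attached RNA fragments are sequenced. The protein was IMP2 (gene Igf2bp2), and the material was E14 brain of Swiss Webster mice, with no treatment or mutant allele named in the labels. There were 4 libraries in a single group, made with the nuclease benzonase and with antibodies to IMP2 raised in mouse and rabbit. The single deposited list of clusters names no library and was taken to stand for all 4. No value therefore has a replicate error, no library could be left out, and the depth of the libraries is unknown. No control immunoprecipitation, input or RNA-seq library was analysed here, so more IMP2 contact per transcript and more Dcx transcript cannot be told apart. In whole brain, more Dcx-expressing cells and more Dcx RNA per cell cannot be told apart either.

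Doublecortin, the product of Dcx, is a microtubule-associated protein that binds between the protofilaments of the microtubule wall and stabilises it. It is made by neurons that have just left the cell cycle, while they migrate and grow their first processes, and loss of the human gene on the X chromosome causes lissencephaly or a band of misplaced neurons under the cortex. IMP2 belongs to the IGF2BP family, whose members bind mRNA through KH domains, mainly in 3' UTRs, and are known for the transport, stability and translation of their targets.

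Clusters were spread over almost the whole Dcx 3' UTR. The deposited 3' UTR interval was the same for all 4 transcripts, chromosome X at 140290385 to 140298093 (mm9, minus strand), a length of 7709 bases. The cluster nearest the stop codon (140297830 to 140297984) began 109 bases beyond it, with a height of 37. The cluster nearest the 3' end (140290425 to 140290489) stopped 40 bases short of that end and had a height of 34. Cluster height is the authors' score, taken to be the deepest pile of sequenced tags within the cluster. Counting the stop codon as 0 and the 3' end as 100%, the mean cluster position was 56.0%, against a median of 48.9% for the mean positions of the 728 other genes with a 3' UTR interval. Of the 34 clusters, 14 had their midpoint nearer the stop codon and 20 nearer the 3' end. Together the clusters covered 3205 bases, or 41.6% of the 3' UTR.

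The tallest cluster had a height of 85 and lay at 140294923 to 140295001, beginning 3092 bases beyond the stop codon. The next tallest, with a height of 64, was well away from it at 140291789 to 140291928, beginning 6165 bases beyond the stop codon. A height of 60 was reached at 140297117 to 140297176, at 140294720 to 140294901 and at 140292535 to 140292727. The sixth cluster in this order had a height of 57 at 140296668 to 140296845. The tall clusters were thus scattered along the 3' UTR, as the map of clusters shows, and only the tallest and 1 of those of height 60 were direct neighbours. At the low end, heights of 23 occurred at 140294635 to 140294679 and at 140291604 to 140291679, and each of these lay within 109 bases of a cluster of 60 or more.

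**Figure D1:**
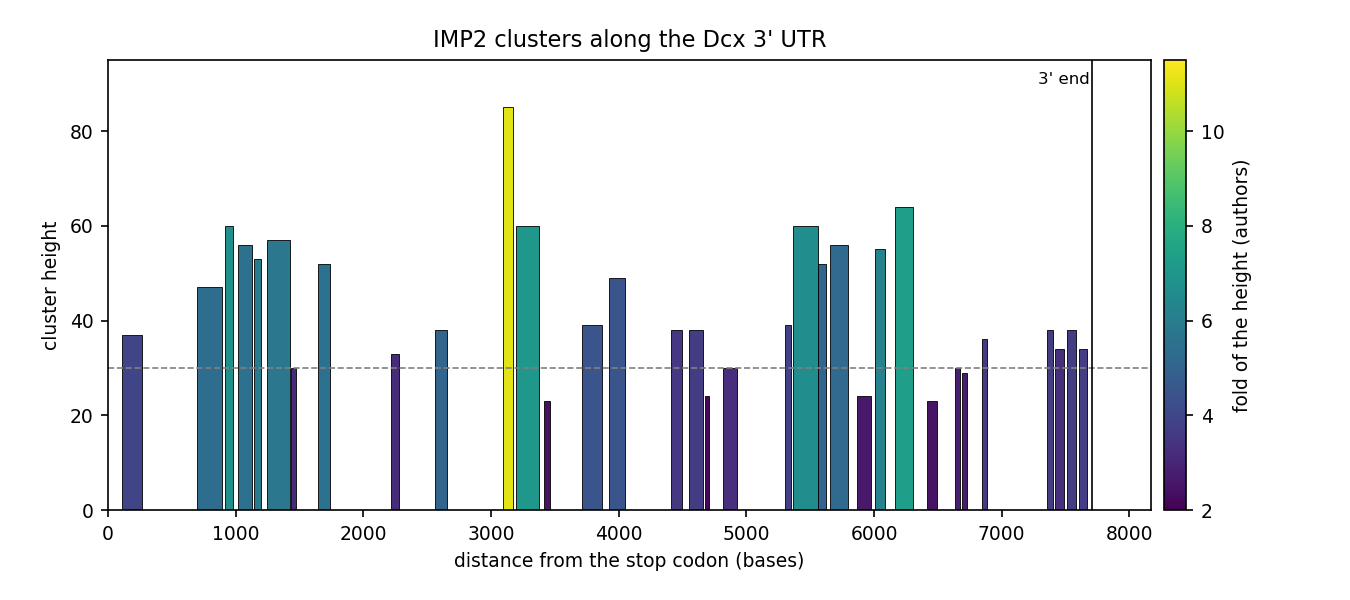
Height of each of the 34 IMP2 clusters of Dcx (y axis, the authors' height) against the distance from the stop codon in bases (x axis); each bar spans the cluster's width, its colour is the authors' fold of the height, and the dashed line is the median height of the list, 30. Clusters reach from 109 bases beyond the stop codon to 40 bases short of the 3' end, and the tallest, 85, lies 3092 bases beyond the stop codon.

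By consecutive stretches of 1000 bases from the stop codon, coverage varied more than 3-fold. The third stretch had the lowest coverage, with 161 covered bases (16.1%) and 2 clusters of heights 33 and 38. The sixth had the highest, with 554 covered bases (55.4%) and 5 clusters of heights 24 to 60. The fourth, which holds the tallest cluster, had 53.5% covered, and the second had 48.6%. The last 709 bases held 4 clusters of nearly equal height, 34 to 38, over 36.2% of their length. Every stretch held at least 2 clusters.

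The clusters came in runs with open stretches between them. Of the 33 gaps between neighbours, 16 were 50 bases or shorter, and the shortest was 2 bases. The median gap was 55 bases, and 6 gaps measured 361 to 478 bases. Joining clusters at most 50 bases apart left 18 runs, of which 7 held more than 1 cluster. The longest run had 6 clusters over 770 bases (140296624 to 140297393), starting at base 701 of the 3' UTR and reaching a height of 60. A run of 4 clusters over 501 bases (140292294 to 140292794) also reached 60. Another run of 4, over 316 bases (140290425 to 140290740), closed the 3' UTR with a height of 38. The tallest cluster belonged to a run of 3 over 367 bases. Among the 36 other genes with at least 8 clusters, the median gap per gene had a median of 118 bases (range 17 to 384), and 5 of them had a shorter median gap than Dcx.

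Dcx clusters were taller and wider than most others in the list. Their median height was 38 (quartiles 33.3 and 54.5, lowest 23, highest 85), against 30 (quartiles 24 and 38, lowest 18, highest 107) for the 1794 other clusters. Above the list's median height of 30 stood 26 of the 34 Dcx clusters (76.5%), against 831 of the 1794 others (46.3%). Heights of 50 or more were found in 12 Dcx clusters and in 191 others. The median width was 78 bases in Dcx (range 35 to 195), against 53 bases in the others (range 10 to 588). Within Dcx, the 14 clusters at least 100 bases wide had a median height of 50.5, and the 20 narrower ones had 37. Across the 34 clusters, height and width had a Pearson r of 0.44 and a Spearman rho of 0.53, as a description of sites that share 1 transcript; over the other clusters these were 0.60 and 0.52. By its highest cluster Dcx shared its place with the stathmin gene Stmn2, and 13 genes had a taller one. By its median height it was exceeded by 107 genes, of which 12 had at least 8 clusters.

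The authors' second score, taken to be a fold of the height over a level that the header does not define, placed Dcx differently. The median fold of Dcx clusters was 3.87 (range 2.20 to 11.1), against 5.43 (range 2 to 25.5) in the other clusters. At or above the list's median fold of 5.40 were 10 of the 34 Dcx clusters (29.4%), against 907 of the 1794 others (50.6%). Of the 760 other genes, 663 had a higher median fold than Dcx and 97 a lower one. The tallest Dcx cluster was also the one with the highest fold, 11.1, and the lowest fold, 2.20, belonged to a cluster of height 24 at 140293383 to 140293420. Height and fold had a Pearson r of 0.97 and a Spearman rho of 0.97 over the 34 Dcx clusters, and 0.50 and 0.60 over the other clusters, again as a description. The fold was taken to be a ratio of the height, and the scores are then linked by construction. The Dcx values are within a single gene and the others are across 760 genes, so they are not like measures. Values within other single genes were not computed.

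Dividing height by fold gives the level that the fold implies, and at Dcx this level was high. It had a median of 9.5 in Dcx clusters and lay between 7.52 and 10.9 along the whole 3' UTR. In the other clusters the median was 5.93 (interquartile range 4.79 to 7.20), and 375 of them (20.9%) were at or above the lowest Dcx value. By the median of this level per gene, 9 of the 760 other genes were above Dcx. The list holds no fold under 2, and 6 Dcx clusters had a fold under 3. Whether the high implied level bears on the number of Dcx clusters was not tested.

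**Figure D2:**
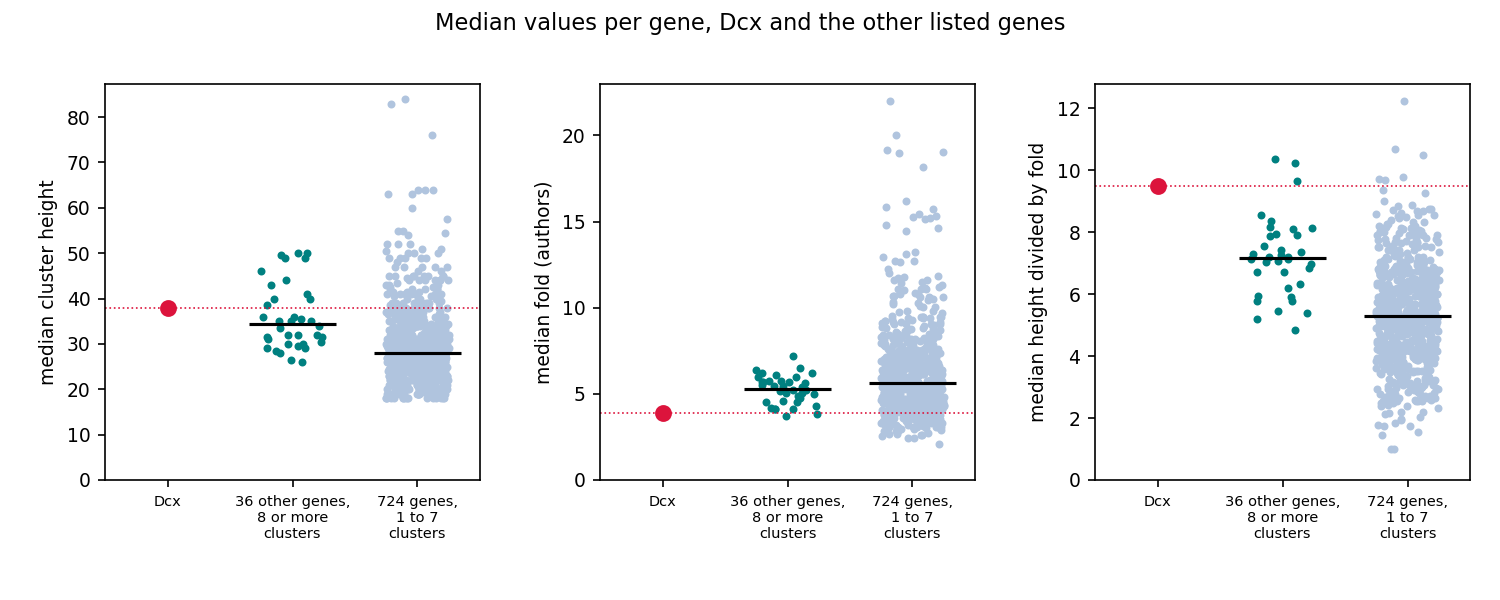
Median cluster height (left), median fold (middle) and median height divided by fold (right) of Dcx, of the 36 other genes with at least 8 clusters and of the 724 genes with 1 to 7 clusters; each point is a gene, black lines are medians over genes and the dotted line is the Dcx value. Dcx lies above both medians in height (38) and in implied level (9.5), and below both in fold (3.87).

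The number of clusters was next set beside the length of the 3' UTR. Among genes with a cluster, 16 had a longer 3' UTR interval than Dcx, and they carried a median of 2.5 3' UTR clusters (range 1 to 25). The 28 other genes whose 3' UTR length was within 20% of that of Dcx had a median of 3 (range 1 to 25), and 12 of them had a single cluster. Dcx had 4.41 clusters per kilobase of 3' UTR, against a median of 0.399 per kilobase in those 28 genes (range 0.116 to 3.6). Coverage of the 3' UTR was 41.6% in Dcx and had a median of 1.77% in the 28 genes (range 0.337 to 49.1%). The gene with 25 clusters and 49.1% coverage was Sox11, so in coverage Dcx was second among these genes. Genes without a cluster do not enter this comparison.

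The 6 genes nearest to Dcx in 3' UTR length had between 1 and 12 clusters in it. Nfia, a transcription factor gene of neural development with 7641 bases, had 9 clusters in the 3' UTR, a highest cluster of 51 and coverage of 7.45%. Celf2, which encodes an RNA-binding splicing regulator, had 12 clusters, a highest of 57 and coverage of 11.1% over 7388 bases. Cbx5, the gene of the heterochromatin protein HP1 alpha, also had 12, with a highest of 47 and coverage of 8.71% over 8095 bases. Soga1 had 5 clusters and a highest of 31. Faxc and Lrrc58 had 1 each, with heights of 22 and 23. All 6 had a lower highest cluster than Dcx on 3' UTRs of nearly the same length. They also had fewer clusters, as did every other gene of the list, since Dcx was selected on that number.

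**Figure D3:**
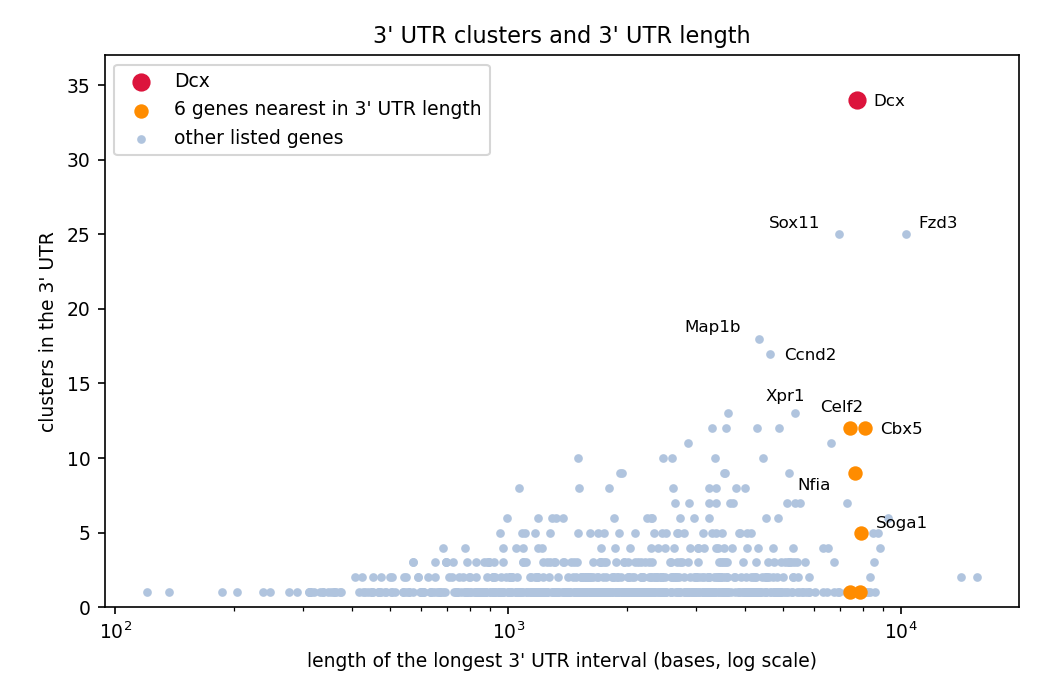
Number of clusters in the 3' UTR (y axis) against the length of the longest deposited 3' UTR interval in bases (x axis, log scale); each point is a gene with a 3' UTR cluster, with Dcx in red and the 6 genes nearest to it in length in orange. Dcx stands at 34 clusters, and the orange genes lie between 1 and 12.

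Some shorter 3' UTRs were packed more densely than that of Dcx. Of the 37 genes with at least 8 clusters, Dcx was eighth in clusters per kilobase, and 7 genes had more. The highest value, 7.53 per kilobase, was that of the beta-tubulin gene Tubb5, with 8 clusters in a 3' UTR of 1062 bases. In coverage, 11 of the 36 other genes were above Dcx, which stood twelfth. Among all 728 other genes with a 3' UTR interval, 25 had more clusters per kilobase than Dcx and 26 had higher coverage.

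The 5 genes that followed Dcx had between 13 and 27 clusters. Fzd3, the Frizzled receptor gene needed for axon tracts, had 27 clusters, 25 of them in a 3' UTR of 10278 bases, with a highest of 55. Sox11, a transcription factor gene of newborn neurons, had 25 in 6953 bases, with a highest of 90. The microtubule-associated protein gene Map1b also had 25, of which 18 were in the 3' UTR, with a highest of 90. Ccnd2, the cyclin D2 gene of neural progenitors, had 17 and a highest of 77. Xpr1, a phosphate exporter gene, had 13 and a highest of 70, and is the one with the tallest cluster of 3 genes tied at 13.

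Likeness to Dcx was measured over the 37 genes with at least 8 clusters, as the distance between percentile ranks of 5 measures: number of 3' UTR clusters, highest height, median height, clusters per kilobase and coverage. The nearest gene was Ccnd2 at a distance of 0.236, where the median over the 36 other genes was 0.902. Sox11 (0.359), Map1b (0.387) and Marcks (0.443), which encodes a protein linking membranes to actin, followed. Ccnd2 had 17 clusters at 3.67 per kilobase over 39.2% of its 3' UTR, with a median height of 35. Marcks had 11 clusters at 3.84 per kilobase and a median height of 46. In fold these 4 genes did not resemble Dcx as closely: their median folds were 4.77 to 6.39, against 3.87 in Dcx.

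Which rule defines a cluster decided the order at the top. With only clusters taller than the list's median height, Dcx kept 26 in its 3' UTR, against 17 in Sox11, 16 in Map1b and 13 in Fzd3. With only clusters at or above the median fold, Dcx had 10, against 14 in Fzd3, 11 in Sox11 and 10 in Map1b. After clusters at most 50 bases apart were joined, Dcx had 18, against 23 in Fzd3 and 15 in Sox11. Dcx thus had the most 3' UTR clusters as deposited and by height, but not by fold or after joining.

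**Figure D4:**
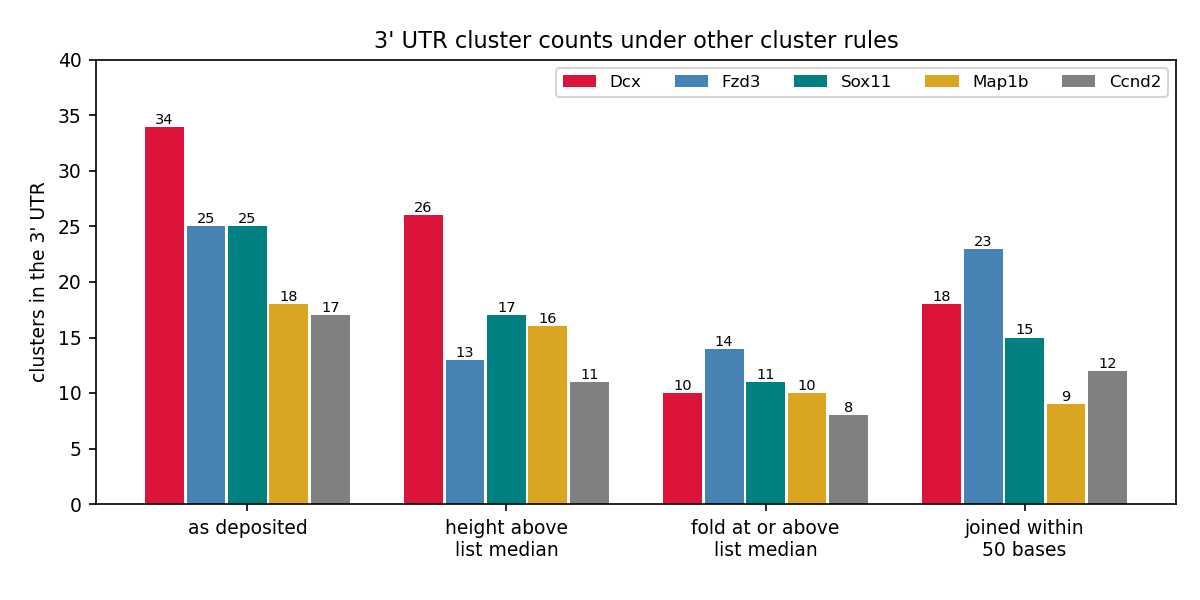
Clusters in the 3' UTR of Dcx, Fzd3, Sox11, Map1b and Ccnd2 (bars) as deposited, above the list's median height, at or above its median fold, and joined when at most 50 bases apart. Dcx leads with 34 and 26 under the first pair of rules and stands below Fzd3, with 10 and 18, under the others.

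Of the 9 members of the doublecortin domain family other than Dcx, 1 had a cluster (11.1%, exact 95% interval 0.281 to 48.2, counting error only), and this interval contains the 3.47% of all 21900 protein-coding genes. With Dcx, which was selected on its clusters, the family had 2 of 10. The listed relative was Dclk1, which encodes a doublecortin-like kinase that also binds microtubules. It had 3 clusters in a 3' UTR of 5441 bases, with a highest of 44 and coverage of 4.15%. Dcx had 34 clusters, a highest of 85 and 41.6% coverage, so the pair differed in number, height and coverage. In median fold the pair were close, with 3.7 in Dclk1 and 3.87 in Dcx. Dclk2, Dclk3, Rp1 and the remaining members were not listed.

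Genes of neuronal migration and of lissencephaly had 16 of 37 members listed (43.2%, exact 95% interval 27.1 to 60.5, counting error only), where the share of all protein-coding genes was 3.47%. All gene lists here were chosen with earlier results of these data known. The share of all protein-coding genes includes genes whose expression in this brain was not measured here. At least 2 clusters were held by 14 of the 37, against 1.56% of all protein-coding genes, and a cluster above the list's median height by 12, against 1.87%. Their median highest cluster was 42, and it was 31 over all listed genes. Map1b (90), the 14-3-3 epsilon gene Ywhae (75), Tubb5 (59) and the kinesin gene Kif5c (55) had the highest clusters. Ywhae had 5 clusters covering 50.6% of a 3' UTR of 1169 bases. Kif5c had 13 at 3.6 per kilobase. Pafah1b2 (48), a catalytic subunit gene of the platelet-activating factor acetylhydrolase that LIS1 joins, had 8, and Reln (46), which encodes the secreted positioning signal reelin, had 2. Pafah1b1, the LIS1 gene whose loss also causes lissencephaly, had 7 clusters and a highest of 44. The reelin pathway further gave the adaptor gene Dab1 (38) and the receptor gene Lrp8 (29), each with 2 clusters.

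Partners and kinases of doublecortin had 4 of 20 listed (20%, exact 95% interval 5.73 to 43.7), beside the overall share of 3.47%. Beside Pafah1b1 they were the kinase gene Gsk3b (highest cluster 39, 8 clusters), the adhesion molecule gene Nfasc (33, 1 cluster) and the JNK1 gene Mapk8 (26, 1 cluster). The neurabin and spinophilin genes Ppp1r9a and Ppp1r9b, Cdk5 and Usp9x were not listed. The listed members had a median of 4 clusters, beside 1 over all listed genes. Dcx had 34 but was selected on that number.

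Markers of newborn neurons, the cells that make doublecortin, had 15 of 26 listed (57.7%, exact 95% interval 36.9 to 76.6), where 3.47% of all protein-coding genes were listed. The interval gives counting error only, and the list was chosen with earlier results of these data known. Their median highest cluster was 63, beside 31 over all listed genes. The highest were at Nrep (106), a gene linked to neuronal regeneration, the surface glycoprotein gene Cd24a (92), Sox11 (90), Stmn2 (85), the adhesion molecule gene Ncam1 (73) and St8sia2 (72), whose enzyme adds polysialic acid to NCAM. Cd24a had 10 clusters at 6.67 per kilobase, above the 4.41 of Dcx. Stmn2 reached the same highest height as Dcx with 6 clusters. A cluster above the list's median height of 30 was held by 9 of the 26, against 1.87% of all protein-coding genes. The listed markers St8sia4 (30), Tbr1 (28), Gap43 (27), Elavl2 (24), Neurod6 (23) and Mapt (20) had none above it. Tubb3, Stmn1, Sox4 and Dpysl3, also markers of these neurons, were not listed.

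The lists of markers of other cells were short, so their shares are imprecise, and they were not tested against the newborn neuron markers. Progenitor markers had 2 of 11 listed (18.2%, exact 95% interval 2.28 to 51.8), Top2a (29) and Vim (27), with 1 cluster each. Erythroid markers had 2 of 5 (40%, exact 95% interval 5.27 to 85.3), the globin genes Hba-a1 (27) and Hbb-y (23). Both intervals are wide, and the erythroid one lies above the overall share of 3.47%. Oligodendrocyte lineage markers had 0 of 7 (exact upper 95% limit 41.0%), microglia markers 0 of 5 and endothelial markers 0 of 5 (52.2% each). Heights of these listed markers were 23 to 29, below the list's median of 30. The newborn neuron markers Tbr1, Gap43, Elavl2, Neurod6 and Mapt, with highest clusters of 20 to 28, were also below that median. Ccnd2, a progenitor gene outside the marker list, had a highest cluster of 77.

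**Figure D5:**
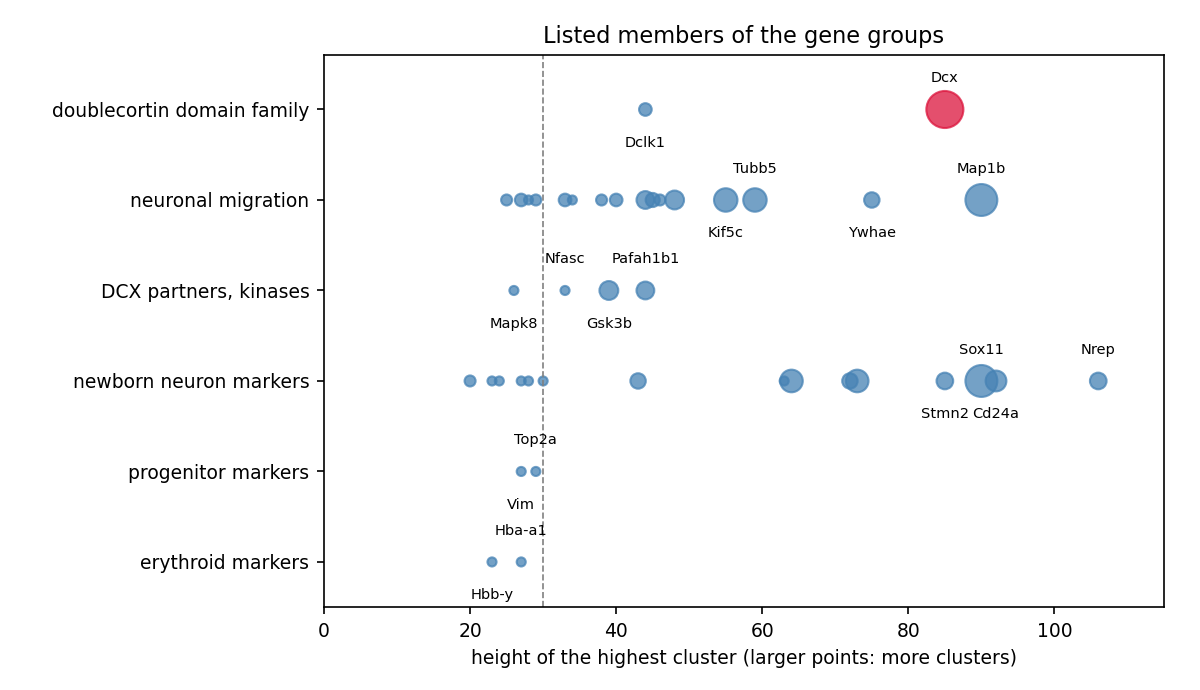
Height of the highest cluster (x axis) of each listed gene in 6 gene groups (rows); larger points have more clusters, Dcx is red, the dashed line is the list's median height of 30, and up to 4 genes per group are named. Dcx at 85 stands with Map1b (90), Sox11 (90) and Stmn2 (85), and the progenitor and erythroid genes lie at 29 or below. Some genes of other rows lie as low, such as Gap43 (27) and Mapt (20) among newborn neuron markers. Tubb2b (28) and Fat4 (25) of neuronal migration and Mapk8 (26) of the partners and kinases do so too.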

How the data were processed

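IMP2-bound RNA was measured by HITS-CLIP in E14 mouse brain in 4 libraries. The submitters' processing notes name Bowtie, FastQC and mm9 but no versions. No source used here states the peak caller, its thresholds or any pooling. Each cluster has a height that the authors deposited, a signal in whole numbers of at least 18. A fold column, also deposited, was taken as a ratio of the height to a level that the header does not define. Its lowest value is 2. The depth per library is unknown, so heights carry no counting interval.

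The 2865 deposited lines were reduced to 1828 distinct clusters, with starts moved to 1-based. Their 1099 transcripts were matched to a RefSeq table of GRCm38.p6 by accession (1088) or name (11), for gene names only. Clusters were placed by midpoint in the longest 3' UTR interval of the gene; coverage counts bases of those clusters within it. Scripts (Python 3.11.15, pandas 2.3.3) were tested on simulated data. Nothing was tested for significance. Members, lists and alternatives were chosen with earlier results of these data known. Named genes were the 5 with most clusters, the 6 nearest in 3' UTR length, the 4 of nearest pattern and up to 6 with the highest clusters of each list, and genes beyond these, including those not listed, were chosen after their values were seen.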

Additional observations from a re-analysis of the deposited data

How the results depend on the processing

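The number, coverage and position of Dcx clusters did not change with the shortest 3' UTR interval or with clusters wholly inside it, since the 4 transcripts share 1 interval and no Dcx cluster crosses its edges. With clusters taller than the median height, coverage was 35.3%. With clusters at or above the median fold, Dcx had 10 clusters, a median height of 58.5, coverage of 15.3%, 1.30 clusters per kilobase, a mean position of 39.4% and rank 21 by clusters per kilobase. Joining clusters at most 50 bases apart gave 18 clusters, a median width of 132 bases, coverage of 46.3%, 2.33 per kilobase, a median gap of 171 bases and rank 13. With genes of at least 2 clusters (1.56% of protein-coding genes), 2 partners and kinases, 9 newborn neuron markers, 0 progenitor and 0 erythroid markers were listed. With genes that had a cluster above the median height (1.87%), these were 9 newborn neuron, 0 progenitor and 0 erythroid markers. The other 33 of the recomputed values stayed within the limit set for their measure. This limit was 1.5-fold for counts, clusters per kilobase, ranks and the highest height. For medians, mean position and coverage it was the 95% binomial interval. The cause of the moves beyond fewer or merged clusters was not tested. No paired analysis was possible because the list holds no values per library, and leaving out a replicate could not be run for the same reason. Depth is unknown, so clusters below the authors' thresholds cannot be told apart from bases without tags.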

Other observations

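The level implied by height over fold was also high in other genes with tall clusters, named here after their values were seen. Above Dcx, with a median of 9.5, stood Tmsb4x (12.2), Rtn1 (10.7), Nrep (10.5), Sox11 (10.4), Map1b (10.2), Nr2f1 (9.80), Nnat (9.72), Ttr (9.69) and Hnrnpa0 (9.67). Of these, Nr2f1, a transcription factor gene of cortical patterning, had a single cluster of height 24, so a high implied level was also found at a low cluster. Tmsb4x, the gene of the actin-sequestering thymosin beta 4, had 2 clusters and a highest of 76.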
